A study of Mus musculus with 6 samples.

Results

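Marker genes of monocyte-derived and lipid-associated macrophages were followed in the livers of mice that lack Nek7 in hepatocytes. They were picked out by gene symbol, as Trem2, Gpnmb, Cd9, Cd63, Lgals3, Lyz2, Ly6c2, Mmp19, Fabp5 and Csf1r. They are 10 of the 17975 genes with a row in the expression table and 10 of the 13805 genes that passed the filter on low counts. The symbols were chosen with earlier results of these data known. Bulk RNA-seq was available for whole liver tissue of 3 WT mice and 3 Hom mice, 1 library per mouse. Hom mice carry 2 floxed Nek7 alleles and the Alb-Cre transgene (NEK7 fl/fl, Alb-Cre+), whose albumin promoter is active in hepatocytes, so macrophages in these livers were not the target of the deletion. WT livers carry only the genotype WT in the labels, so it is not stated whether these mice carried floxed alleles or Cre, and the labels give no age or sex. The study's reporting notes say that knock-out experiments used both sexes, and the age and sex of each sequenced mouse were not found in the sources used here.

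The liver holds resident macrophages, the Kupffer cells, which are seeded before birth and renew themselves in place. When the tissue is injured, monocytes from the blood enter through chemokine receptors such as CCR2 and mature into macrophages there. Some of these take on a lipid-associated state, known from fatty and injured tissue, in which the receptor TREM2, the lysosomal glycoprotein GPNMB and the tetraspanins CD9 and CD63 are made together with lipid-handling and lysosomal genes.

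The start-site regions of 4 of the 10 genes, within the 5′ flank for Trem2, Cd63 and Ly6c2 and just inside the transcript for Gpnmb, held a match to motifs bound by factors of macrophage identity and activation. They are printed because these 4 include Trem2, the marker most strongly changed in the fit of all livers. RefSeq promoters of 300 bases (250 before to 50 after the start site, build GRCm38.p6) were matched by gene ID for 7 of the 10 genes and searched on both strands for the E-box CACGTG, the PU.1 core GAGGAAG and the AP-1 site TGANTCA. Mmp19, Fabp5 and Csf1r were not matched. In the lines below each stretch is written 5′ to 3′ on the strand of its gene, and capitals mark the matched letters, with CTTCCTC being the PU.1 core read from the opposite strand. The stretches end 1 base before the start site, except that of Gpnmb, which runs from 10 bases before it to base 20 of the transcript.
Trem2, chr17:48346301-48346400, plus strand: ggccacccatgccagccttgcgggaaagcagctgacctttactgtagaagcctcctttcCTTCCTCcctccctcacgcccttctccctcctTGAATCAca
Cd63, chr10:128909245-128909344, plus strand: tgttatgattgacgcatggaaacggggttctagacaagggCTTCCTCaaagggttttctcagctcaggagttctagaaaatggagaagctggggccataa
Ly6c2, chr15:75111938-75112087, minus strand: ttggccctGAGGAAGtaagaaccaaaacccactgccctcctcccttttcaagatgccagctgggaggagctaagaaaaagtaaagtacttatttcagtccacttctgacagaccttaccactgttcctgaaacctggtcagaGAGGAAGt
Gpnmb, chr6:49036508-49036537, plus strand: atagatgccaggggcaagTGACTCAtgagc

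The Trem2 stretch held both a PU.1 core and an AP-1 match, Cd63 held 1 PU.1 core, the downstream start site of Ly6c2 held 2 PU.1 cores, and Gpnmb held 1 AP-1 match. Among all 32851 RefSeq promoters of the same length, 13.6% held the PU.1 core, 7.81% the AP-1 site and 7.15% the E-box, and none of the 7 matched promoters held the E-box letters. Lgals3, Cd9 and Lyz2 held no match to any of the 3 motifs in this window. These matches describe letters in the reference genome, and binding was not measured.

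The libraries held between 19349418 and 19730236 estimated counts. Nek7, the deleted gene, had 1127, 1077 and 1036 counts in the WT livers and 310, 439 and 387 in the Hom livers, so each library followed its label. Levels are given below as CPM, counts scaled to library size and corrected with trimmed mean of M-values (TMM) factors, and fold changes are fitted Hom over WT. A gene is said to have risen or fallen only where edgeR's quasi-likelihood test gave a Benjamini-Hochberg adjusted p under 0.05 over all tested genes.

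Several livers stood apart in ways that touch the markers. WT 1 held transcripts of granulocytes: the neutrophil markers summed to 177 CPM there, against 9.49 and 16.2 CPM in the other WT livers and 25.7 to 67.7 CPM in the Hom livers. WT 3 held transcripts of keratinised epithelium, and 18 epidermal genes, among them the keratins Krt5 and Krt14, summed to 1058 CPM there, 186.5 CPM in Hom 1 and 42.5 to 65.6 CPM in the other 4 livers. In Hom 2, 8 interferon-induced genes summed to 417.5 CPM, against 122.5 and 134.7 CPM in the other Hom livers and 63.5 to 89.4 CPM in the WT livers. The epidermal and interferon lists were written after these values had been seen. Hom 1 alone had 0 counts of Ddx3y and of Kdm5d, genes of the Y chromosome, although Uty, on the same chromosome, had 149 counts there. The other livers had 630 to 1125 counts of Ddx3y and 243 to 382 of Kdm5d. Whether Hom 1 differed from them in sex was not tested. Where leaving out WT 1, WT 3, Hom 1 or Hom 2 changes the call of a marker, the fit without that liver is therefore also given. For the gene lists not every such fit is given.

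Of the 10 markers, 4 rose in Hom livers, none fell and 6 did not pass the test. Those that rose were Trem2, Cd9, Cd63 and Lyz2. Across all tested genes 21.5% rose and 20.1% fell, so that change was common in these livers. The median log2 fold change of the 10 markers was 1.5, and that of all tested genes was -0.00175. For 5 markers, the 4 named and Gpnmb, all Hom livers were above all WT livers, an arrangement found for 28.7% of tested genes. In bulk tissue a change in the number of cells of a type cannot be told apart from a change in RNA per cell.

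**Figure D1:**
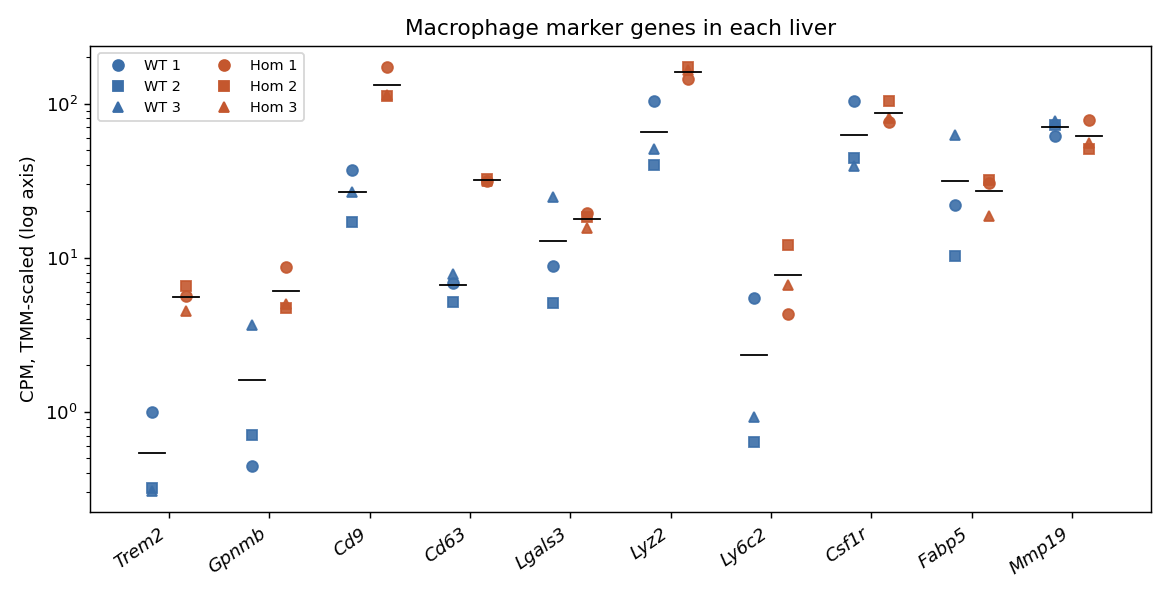
TMM-scaled CPM (log axis) of each of the 10 marker genes in every liver, with WT livers in blue, Hom livers in orange, one symbol per replicate number and black lines at group means. The groups separate for Trem2, Gpnmb, Cd9, Cd63 and Lyz2, whereas WT 3 is the highest liver for Lgals3 and Fabp5, WT 1 lies among the Hom livers for Ly6c2, and WT 1 and Hom 2 are the highest for Csf1r.

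Trem2, which encodes a lipid-sensing surface receptor, changed most among the 10 in the fit of all livers. It had 18, 5 and 5 counts in the WT livers and 121, 158 and 105 in the Hom livers, or 0.544 ± 0.399 CPM (SD, n = 3) against 5.56 ± 0.997 CPM (SD, n = 3). The lowest Hom liver had several times the level of the highest WT liver, WT 1. The fold change was 9.95, with a log2 fold change of 3.31 ± 0.45 (SE) and an adjusted p of 0.00202 by edgeR's quasi-likelihood test. WT 2 and WT 3 held 5 counts each, so the WT level has a wide counting error. Without WT 1 the log2 fold change was 4.12 with an edgeR adjusted p of 9.19e-04. Without WT 3 it was 3.02, below the 3.40 of Gpnmb. With WT 3 and Hom 1 both left out it was 3.02, against 3.07 for Gpnmb.

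Gpnmb, which encodes a glycoprotein of lysosomes and the cell surface, had 8, 11 and 60 counts in the WT livers and 186, 114 and 116 in the Hom livers. All Hom livers were above all WT livers, but WT 3 stood well above the other WT livers. The log2 fold change was 1.93 ± 0.72 (SE) with an adjusted p of 0.0683 by edgeR's quasi-likelihood test, which does not pass. Without WT 3 the log2 fold change was 3.40 and the adjusted p 0.00457, and with WT 3 and Hom 1 both left out these were 3.07 and 0.00464. Gpnmb is also made by pigment cells and other cells outside the macrophage lineage, and the part of the epidermal transcripts of WT 3 in its level was not tested.

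Cd9 and Cd63 encode tetraspanins, membrane proteins of the cell surface and of late endosomes and exosomes. Cd9 had 660, 267 and 432 counts in the WT livers and 3692, 2728 and 2622 in the Hom livers. It rose 4.93-fold (log2 fold change 2.30 ± 0.30, SE, edgeR adjusted p = 0.00179). The lowest Hom liver had 112.5 CPM and the highest WT liver 36.9 CPM.

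Cd63 had 123, 80 and 128 counts in the WT livers and 670, 784 and 731 in the Hom livers. Its Hom livers were the most alike of any marker, at 31.7 ± 0.551 CPM (SD, n = 3) against 6.62 ± 1.38 CPM (SD, n = 3) in WT livers. It rose 4.78-fold, with a log2 fold change of 2.26 ± 0.15 (SE) and the smallest adjusted p of the 10, 2.81e-04 by edgeR's quasi-likelihood test. Cd63 shares 36.5% of its 50-base stretches with the pseudogene Cd63-ps, and reads from these stretches could be split between the genes. Both tetraspanins are made by many cell types. Bile duct epithelium is 1 of them, and 9 of 10 cholangiocyte markers rose, their sum being 81.1 to 110.4 CPM in WT livers and 639.2 to 900.6 CPM in Hom livers. In the Hom livers most of that sum is Spp1, which macrophages also make, at 520.1 to 732.6 CPM against 29.3 to 57.4 CPM in WT livers. The other 9 genes, of which 8 rose, summed to 51.7 to 57.1 CPM in WT livers and 119.1 to 168 CPM in Hom livers. The part of these cells in the Cd9 and Cd63 levels was not tested.

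Lgals3, which encodes the secreted lectin galectin-3, had 159, 79 and 404 counts in the WT livers and 420, 448 and 359 in the Hom livers. WT 3 was the highest of all 6 livers at 24.8 CPM, and the Hom livers lay between 15.5 and 19.6 CPM. The log2 fold change was 0.47 ± 0.51 (SE) with an edgeR adjusted p of 0.493. Without WT 3 it was 1.34 with an adjusted p of 0.0128, so that the call for Lgals3 rests on this liver. Galectin-3 is also made in skin epithelium, and the share of the epidermal transcripts in this value was not tested.

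Lyz2, which encodes lysozyme of macrophages and granulocytes, was the marker with the highest level per length, at a mean of 96.8 TPM in WT livers and 354 TPM in Hom livers. Its counts were 1871, 622 and 824 in WT and 3099, 4180 and 3802 in Hom livers. It rose 2.46-fold (log2 fold change 1.30 ± 0.34, SE, edgeR adjusted p = 0.0211). WT 1, the liver with granulocyte transcripts, was the highest WT liver at 104.5 CPM and still below the lowest Hom liver at 144.6 CPM. The call was lost when WT 2, WT 3, Hom 2 or Hom 3 was left out, with edgeR adjusted p-values of 0.0537, 0.0658, 0.0609 and 0.0601, and it was 0.0825 with WT 3 and Hom 1 both left out. Lyz2 shares 15.4% of its 50-base stretches with Lyz1, the lysozyme of Paneth cells, which had 6.79 ± 3.45 CPM in WT livers and 14.7 ± 0.846 CPM in Hom livers (SD, n = 3).

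Ly6c2, which encodes part of the Ly6C surface antigen of inflammatory monocytes, had 98, 10 and 15 counts in the WT livers and 93, 294 and 154 in the Hom livers. WT 1 lay above Hom 1, and the groups overlapped. The log2 fold change was 1.70 ± 0.78 (SE) with an edgeR adjusted p of 0.122. Without WT 1 it was 3.29 with an adjusted p of 0.00683. Hom 2, the liver with the interferon-induced genes, held the highest Ly6c2 level, 12.1 CPM, and the part of that state in the level was not tested. Ly6c2 shares 32.6% of its 50-base stretches with its paralog Ly6c1, which was itself highest in Hom 1 (7.79 CPM) and, among WT livers, in WT 3 (4.61 CPM), so the split of reads between the paralogs is uncertain.

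Csf1r, the receptor for the macrophage growth factors CSF1 and IL-34, is a marker of all monocytes and macrophages. It had 1857, 690 and 637 counts in the WT livers and 1634, 2511 and 1868 in the Hom livers. WT 1 and Hom 2 were level, at 103.7 and 103.5 CPM, and the groups overlapped. The log2 fold change was 0.47 ± 0.36 (SE) with an edgeR adjusted p of 0.328. Without WT 1 it was 1.05 with an adjusted p of 0.00479.

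Fabp5, which encodes a fatty acid-binding protein of macrophages and of skin, had 393, 160 and 1021 counts in the WT livers and 656, 771 and 434 in the Hom livers. WT 3 was again the highest liver, at 62.7 CPM against 18.7 to 31.8 CPM in the Hom livers. The log2 fold change was -0.23 ± 0.59 (SE, edgeR adjusted p = 0.780), and it was 0.74 with an adjusted p of 0.171 without WT 3. Its related gene Fabp4, of fat cells and macrophages, had 6.0 ± 1.2 CPM in WT livers and 17.1 ± 3.32 CPM in Hom livers (SD, n = 3). Fabp5 shares 21.1% of its 50-base stretches with 5 other genes.

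Mmp19, a matrix metalloproteinase, had 1095, 1127 and 1250 counts in the WT livers and 1688, 1225 and 1287 in the Hom livers. The groups overlapped at 61.2 to 76.8 CPM and 50.5 to 78.8 CPM. The log2 fold change was -0.19 ± 0.18 (SE) with an edgeR adjusted p of 0.430. Without Hom 1 it was -0.40 with an adjusted p of 0.0441, the only alternative in which any of the 10 markers fell. Fabp5 and Mmp19 were the markers whose sign depended on scaling: with library size alone the fitted values were 0.23 and 0.26, with adjusted p-values of 0.754 and 0.143, under a scaling that also moved the median of all genes to 0.453.

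The spread within groups was uneven. In 8 of the 10 markers the highest WT liver was more than 2 times the lowest, with the widest ratios in Ly6c2 (8.53), Gpnmb (8.25) and Fabp5 (6.11), whereas the ratios in the Hom livers ran from 1.03 to 2.79.

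**Figure D2:**
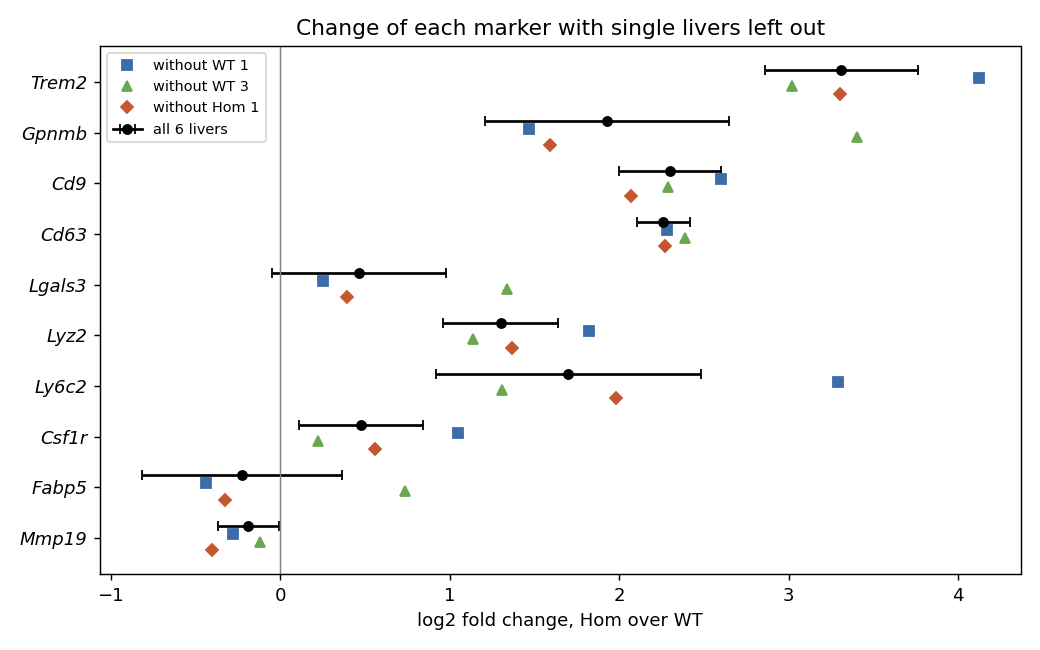
Log2 fold change, Hom over WT, of each marker from the fit of all 6 livers (black, bars are SE) and from fits that leave out WT 1, WT 3 or Hom 1. Trem2, Cd9 and Cd63 stay above 2 in all 4 fits, while Gpnmb and Lgals3 are highest without WT 3, Ly6c2 and Csf1r are highest without WT 1, and Fabp5 is above 0 only without WT 3 among these 4 fits; Fabp5 and Mmp19 are also above 0 with library size alone.

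Because several of these genes are found in every macrophage, each was also divided, within each liver, by the geometric mean of 8 pan-macrophage genes. On this log2 scale the ratio of Trem2 was 2.16 higher in Hom livers, that of Cd9 1.03 higher and that of Cd63 0.97 higher, and the groups did not overlap. Csf1r was 0.70 lower relative to the same genes, again without overlap. The differences were 0.12 for Lyz2, 1.13 for Gpnmb and 0.91 for Ly6c2. They were -0.54 for Lgals3, -1.19 for Fabp5 and -1.52 for Mmp19. For all of these the groups overlapped. With 3 against 3 livers the exact two-sided permutation test cannot give a p below 0.1. The ratios of Trem2, Cd9, Cd63 and Csf1r reached it, and their Benjamini-Hochberg adjusted value over the 10 markers was 0.25. The results for Csf1r and Lyz2 depended on Cybb among the reference genes. Without Cybb the Csf1r difference was -0.35 with overlapping groups, and against Adgre1 and Cd68 alone it was -0.02. Under the same changes the Lyz2 difference was 0.47 and 0.80, with groups that did not overlap and an exact permutation p of 0.1 for each.

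Of the 8 pan-macrophage genes themselves 3 rose and none fell, where 21.5% of all tested genes rose and 20.1% fell. Those that rose were Cybb, the catalytic subunit of the phagocyte NADPH oxidase (log2 fold change 3.66), Laptm5, a lysosomal protein of leukocytes (1.09), and Cd68, a lysosomal glycoprotein of macrophages (0.78). Adgre1, which encodes the macrophage antigen F4/80, had a log2 fold change of 0.40 and an edgeR adjusted p of 0.213. All 8 rose without WT 1, and 1, Cybb, rose without WT 2, WT 3, Hom 2 or Hom 3.

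A written list held 22 further genes of the lipid-associated macrophage programme. Of the 21 tested, 13 rose, 2 fell and 6 did not pass, with a median log2 fold change of 1.32. The counts of this list with single livers left out are not given here. The largest change was in Mmp12, the macrophage metalloelastase, at 0.344 ± 0.0569 CPM in WT livers and 6.78 ± 2.00 CPM in Hom livers (SD, n = 3; log2 fold change 4.28). Ms4a7, a membrane protein of monocyte-derived macrophages (3.62), Itgax, which encodes the integrin CD11c (2.97), and Atp6v0d2, a lysosomal proton pump subunit (2.14), rose as well. So did Lpl, lipoprotein lipase (2.33), and Anxa5, which encodes annexin A5 and is widely made (2.17). Spp1, which encodes osteopontin, rose by 3.78 on the log2 scale, but it is a bile duct marker as well and stands on the cholangiocyte list. Apoe, the apolipoprotein E gene (-0.71), and Plin2, a lipid droplet coat protein gene (-0.88), fell, and both are abundant in hepatocytes. The cathepsins Ctsb, Ctsd, Ctsl and Ctsk, lysosomal proteases, had log2 fold changes of 0.11, 0.07, 0.23 and 0.72, and none passed.

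Of 10 tested genes of TREM2 signalling 3 rose and none fell, where 21.5% of all tested genes rose and 20.1% fell. Those that rose were Adam10, the sheddase that cleaves TREM2 from the surface (log2 fold change 0.80), the phosphatase gene Inpp5d (1.07) and the adaptor gene Card9 (1.17). Tyrobp, which encodes DAP12, the signalling adaptor of TREM2, had 11.2 ± 6.73 CPM in WT livers and 24.4 ± 4.25 CPM in Hom livers (SD, n = 3). Its groups did not overlap and its log2 fold change was 1.11, with an edgeR adjusted p of 0.0522. The kinase gene Syk had a log2 fold change of 0.64 and did not pass. Without WT 1 the number that rose was 8, and it was 1, Adam10, without WT 2, WT 3, Hom 2 or Hom 3.

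**Figure D3:**
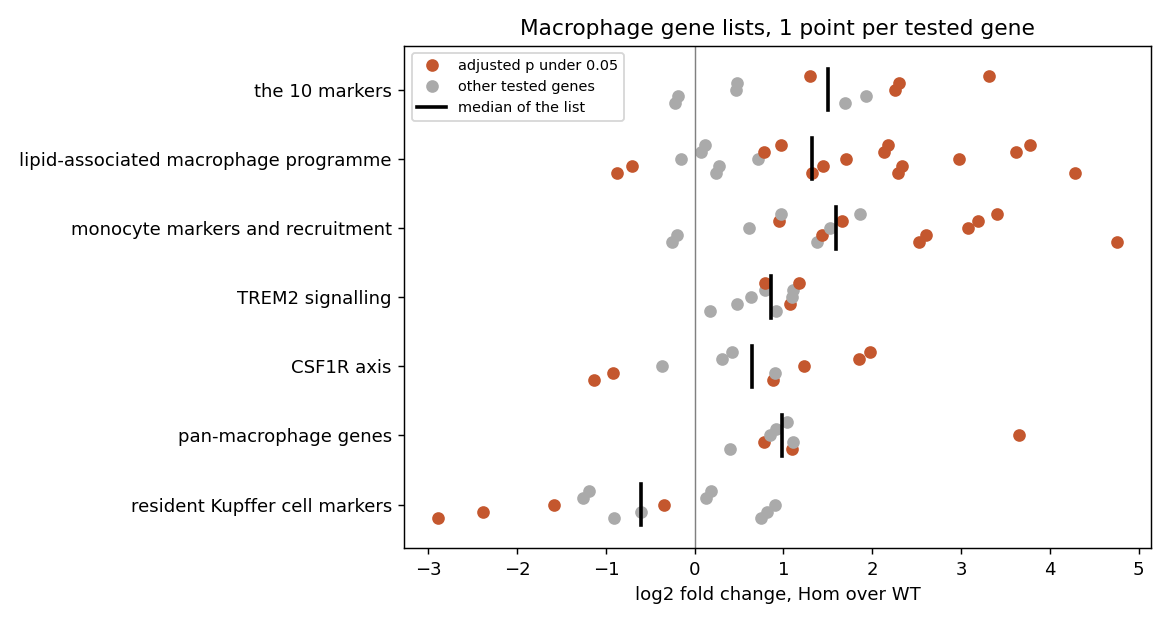
Log2 fold change, Hom over WT, of every tested gene in the 10 markers and in 6 related gene lists, with orange points for adjusted p under 0.05 and black bars at list medians. Medians lie above 0 for all lists but the resident Kupffer cell markers, where the 4 called genes lie below 0, the one nearest 0 being Nr1h3, which is above 0 with library size alone.

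On the CSF1R axis 4 of 10 tested genes rose and 2 fell, where 21.5% of all tested genes rose and 20.1% fell. Csf1, a ligand of the receptor, had 14.7, 10.5 and 7.68 CPM in the WT livers and 44.2, 46.9 and 38.9 CPM in the Hom livers, and rose by 1.98 on the log2 scale (edgeR adjusted p = 0.00108). Il34, the other ligand, had a log2 fold change of 0.31 and an adjusted p of 0.378. Among transcription factors of the macrophage lineage, Runx1 (1.85) and Irf8 (1.23) rose, while Spi1, which encodes PU.1 itself, had a log2 fold change of 0.90 and an edgeR adjusted p of 0.0901. Cebpb (-0.92) fell, and it is also strongly made in hepatocytes. With WT 2 or Hom 2 left out 2 genes of this list rose, and 1 fell without WT 2, Hom 2 or Hom 3.

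Of 16 monocyte marker and recruitment genes 9 rose, none fell and 7 did not pass, with a median log2 fold change of 1.59 and all Hom livers above all WT livers in 11. Cx3cr1, the fractalkine receptor of monocytes and macrophages, had 1.79, 0.385 and 1.23 CPM in the WT livers and 31.3, 36.2 and 26.3 CPM in the Hom livers. It rose 27.0-fold (log2 fold change 4.75, edgeR adjusted p = 4.62e-04). Its ligand Cx3cl1 rose 10.6-fold (adjusted p = 1.59e-04).

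Ccr2, the chemokine receptor of inflammatory monocytes, had 2.18, 0.898 and 1.41 CPM in WT livers and 9.66, 17.9 and 13.8 CPM in Hom livers. It rose by 3.19 on the log2 scale, and its ligand Ccl2 by 2.53. Ccr1, another chemokine receptor, rose by 3.08. Chil3, a chitinase-like protein gene (-0.26), and F13a1, which encodes a subunit of coagulation factor XIII (-0.20), did not pass the test. With WT 2 or Hom 2 left out 5 of the 16 rose.

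**Figure D4:**
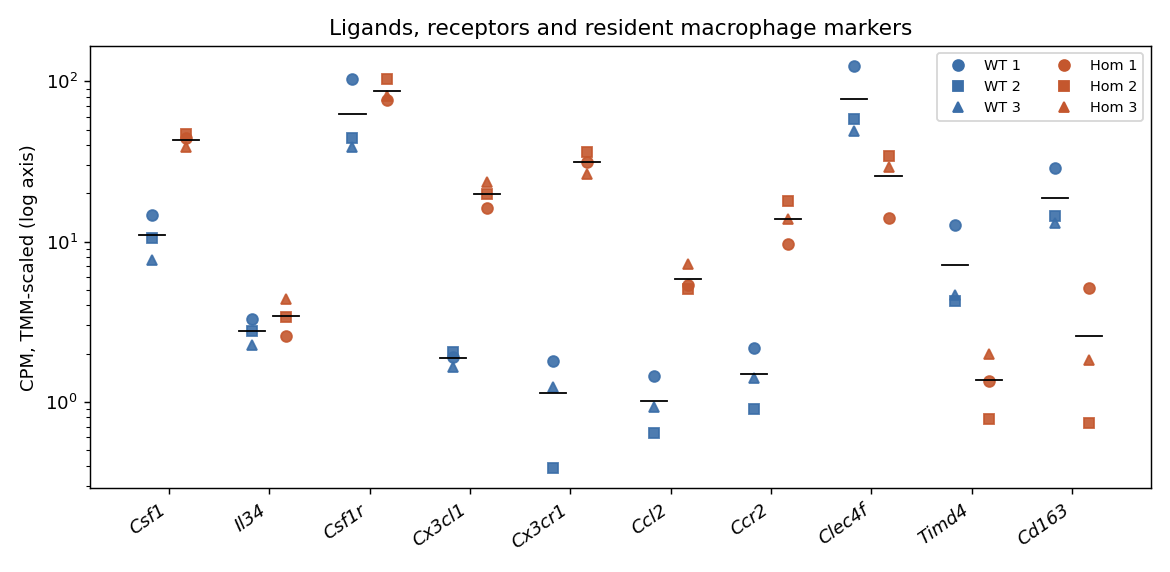
TMM-scaled CPM (log axis) in every liver of the growth factor genes Csf1 and Il34 with their receptor gene Csf1r, the chemokine genes Cx3cl1 and Ccl2 with the receptor genes Cx3cr1 and Ccr2, and 3 resident Kupffer cell markers. Csf1, Cx3cl1, Cx3cr1, Ccl2 and Ccr2 are higher in all 3 Hom livers, Clec4f, Timd4 and Cd163 are lower in all 3, and Il34 and Csf1r overlap.

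Of 13 tested markers of resident Kupffer cells, 4 fell and none rose, where 20.1% of all tested genes fell and 21.5% rose. Timd4, a phosphatidylserine receptor of resident macrophages, had 12.6, 4.23 and 4.61 CPM in WT livers and 1.35, 0.783 and 1.98 CPM in Hom livers (log2 fold change -2.38, edgeR adjusted p = 0.0126). Cd163, the haemoglobin scavenger receptor, and Clec4f, a lectin of Kupffer cells, fell by 2.89 and 1.59 on the log2 scale. Nr1h3, which encodes the nuclear receptor LXR alpha, fell by 0.35, but its log2 fold change was 0.10 with library size alone. The complement genes C1qa, C1qb and C1qc, made by most macrophages, had log2 fold changes of 0.75 to 0.91 and did not pass. Without WT 1 the list had 2 genes that fell and 3 that rose, and without Hom 3 it had 1 that fell. Timd4 passed in each fit without 1 liver, at -1.69 without WT 1. Clec4f lost its call without WT 1, Hom 1 or Hom 3, with log2 fold changes of -1.06, -1.29 and -1.68 and edgeR adjusted p-values of 0.0541, 0.0539 and 0.0705. Its call was also lost with library size alone (-1.14, edgeR adjusted p = 0.0838) and with the replicate block (-1.51, edgeR adjusted p = 0.0803). Cd163 lost its call without Hom 3 (adjusted p = 0.0536) and was -3.88 without Hom 1, and Nr1h3 lost its call without WT 1, WT 3, Hom 2 or Hom 3. WT 1 had the highest summed level of these markers, 922.8 CPM, against 448.2 and 518.5 CPM in the other WT livers and 572.1 to 724.1 CPM in the Hom livers.

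Other cell types moved beside the markers. Of 7 tested neutrophil markers 0 passed by edgeR's test, 0 had an unadjusted p under 0.05 and 0 passed by DESeq2. Of the dendritic cell markers 1 of 7 rose, and of the lymphocyte markers 1 of 6, where 21.5% of all tested genes rose. Hepatocyte markers fell in 12 of 16 (7 without Hom 3), their sum being 176700 to 208300 CPM in WT livers and 74470 to 95400 CPM in Hom livers. Stellate and fibroblast markers rose in 6 of 10, and endothelial markers fell in 5 of 8. Their part in the levels of the markers was not tested. With library size alone, in place of TMM, 6574 genes rose and 642 fell, against 2974 and 2780.

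**Figure D5:**
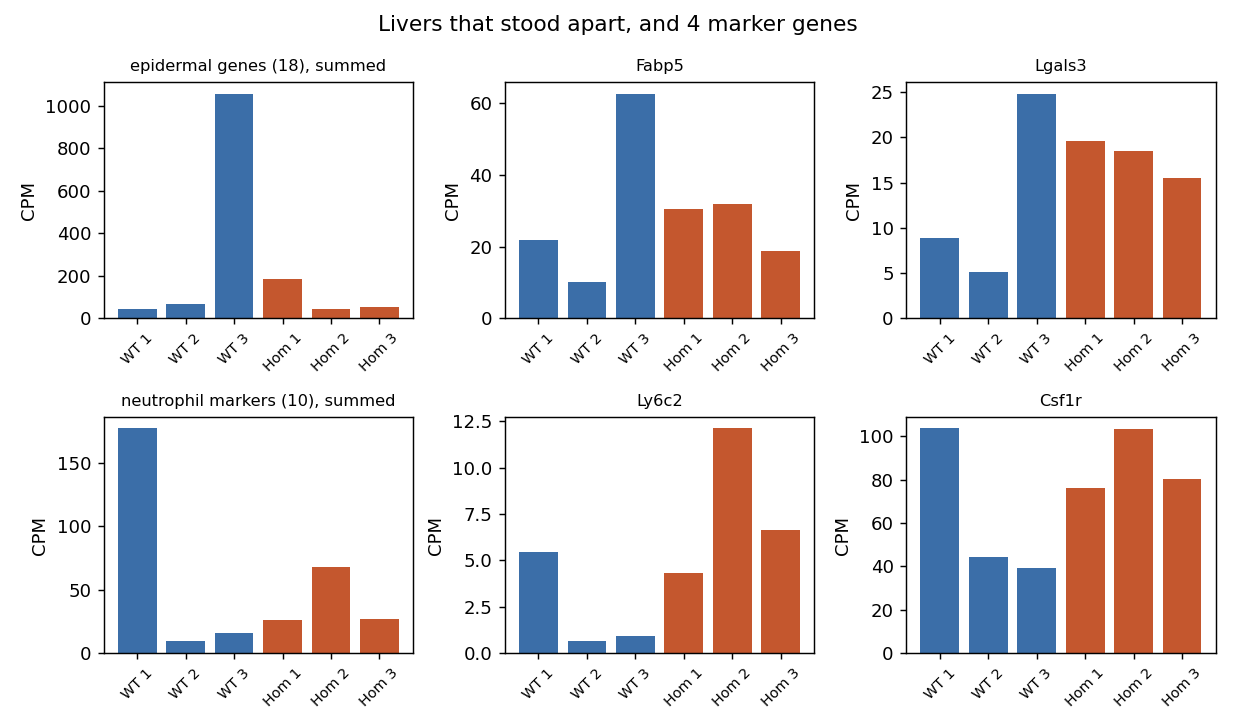
Bars from 0 of TMM-scaled CPM in each liver for 18 epidermal genes and 10 neutrophil markers, each summed, beside 4 of the markers. WT 3 holds 1058 CPM of epidermal transcripts and the highest Fabp5 and Lgals3, and WT 1 holds 177 CPM of neutrophil transcripts and the highest Ly6c2 and Csf1r of the WT livers.

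Genes with the most similar pattern were sought over the 6 livers among 12474 genes, by root mean square distance of log2 CPM from the WT mean. Nearest to Trem2 were Cd14, the lipopolysaccharide co-receptor (distance 0.278), Cybb (0.284) and Sytl5, a synaptotagmin-like protein gene (0.290). Nearest to Ly6c2 were the haematopoietic myosin gene Myo1g (0.375), Tspoap1 (0.385) and the leukocyte adaptor gene Pstpip1 (0.401). The Myo1g counts of 71, 5 and 15 in WT livers and 75, 142 and 96 in Hom livers repeat the high WT 1 value seen for Ly6c2.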

How the data were processed

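RNA from about 100 mg of snap-frozen liver of each mouse was extracted with Trizol and sequenced on DNBSEQ. The submitters' processing notes name HISAT2 2.0.4, Bowtie2 2.2.5, RSEM 1.2.12 and mm9, with no role or order. The strand setting of the counting is not given in the sources used here. The authors deposited 1 estimated count per gene and liver, not scaled between livers, of which 65.9% were whole, with FPKM and TPM per liver. The deposited FPKM values are per length and library and were not used in a test. The TPM values deposited by the authors served only to compare levels between genes. Group means carry crossed names in the table and were not used.

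Counts were rounded and fitted in R 4.3.3 with edgeR 4.0.16 (filterByExpr, TMM, glmQLFit, glmQLFTest; Benjamini-Hochberg over all tested genes). The scripts were tested on simulated data. Alternatives were DESeq2 1.42.0, other scalings and filters, a replicate block and single livers left out. Ratios used a prior count of 0.5. Replicate numbers did not pair the livers, which came from different mice. Named genes were the 10 markers, the 3 genes of each list with the smallest adjusted p, a set of genes tied to the markers, and the 3 genes nearest to Trem2 and to Ly6c2; the others named were chosen after their values were seen. The markers and gene lists were chosen with earlier results of these data known. The neutrophil list was among those written first, and the epidermal and interferon lists were added. Shared 50-base stretches came from the longest GENCODE M21 transcripts. Single values of some listed genes are not reported here.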

Additional observations from a re-analysis of the deposited data

How the results depend on the processing

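Trem2, Cd9 and Cd63 passed in every fit in which they were tested, and Lyz2 did not pass in 4 fits that left out 1 liver or without WT 3 and Hom 1. The number of markers that fell was 0 to 1 over the fits without 1 liver, the 1 being Mmp19 without Hom 1. The number of monocyte genes that rose was 5 to 10 over the same fits (5 without WT 2 and 5 without Hom 2), against 9. The median log2 fold change of the markers was 1.92 with library size alone, which moved the median of all genes to 0.453, and 0.933 under the stricter filter of 10 counts per liver, where Trem2 and Gpnmb were no longer tested and 8 remained. It was 1.15 to 1.64 with 1 liver left out. DESeq2 called 6 markers (adding Gpnmb and Ly6c2), library size alone 5 (adding Gpnmb). Upper-quartile factors gave 3477 higher and 2060 lower genes against 2974 and 2780. TREM2 signalling genes that rose numbered 3, with a range of 1 to 9 over all settings, and pan-macrophage genes 3, with a range of 1 to 8. The settings include library size alone, under which 6574 of 13805 tested genes rose and 642 fell. Kupffer cell markers that fell numbered 4, with a range of 1 to 5, and those that rose 0, with a range of 0 to 3. Log2 fold changes that changed sign were, with library size alone, Nr1h3 (0.101, adjusted p 0.433), Mmp19 (0.26) and Fabp5 (0.228), and with the replicate block Fabp5 (0.116), Ngp (0.131) and S100a9 (0.281). Of the fits without 1 liver, Fabp5 ran from -0.648 to 0.737 (the highest without WT 3), S100a9 from -1.5 to 1.97 (the highest without WT 1) and Ngp, a neutrophil granule gene, from -4.33 to 6.39 (the highest without WT 1, edgeR adjusted p 0.0379, where the remaining WT livers held 0 and 1 counts, so the fitted size is not a bound). Fabp5 was also 0.644 without WT 3 and Hom 1. Of 684 comparisons of a named gene with an alternative other than leaving out WT 3 and Hom 1, 601 kept direction and call, 48 kept direction and lost the call, 26 kept direction and gained it, and 9 changed sign. The comparisons covered 58 genes. Genes named only as nearest to Trem2 or Ly6c2, or chosen after their values were seen, were not among them. The replicate block left 4 markers higher and changed no call among them, with 6 monocyte genes, 1 TREM2 signalling gene and 1 pan-macrophage gene higher; same-numbered livers correlated at -0.11 to -0.064, so the numbers gave no sign of pairing. Leaving out WT 3 and Hom 1 together, chosen after seeing the data, left 5 markers higher. Causes of these shifts were not tested. Depth limits Trem2, Gpnmb and Ly6c2, which held 18 counts or fewer in at least 2 of the WT livers.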

Other observations

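The granulocyte transcripts of WT 1 included genes of immature neutrophils. A list of 8 neutrophil precursor granule genes, written after the values were seen and with some genes shared with the neutrophil list, summed to 108.7 CPM in WT 1, to 0.577 and 0.246 CPM in the other WT livers, and to 1.87, 12.6 and 1.68 CPM in the Hom livers. Mpo, which encodes myeloperoxidase, had 14.4 CPM in WT 1, and Ngp, a neutrophil granule gene, had 57.0 CPM there. WT 1 was also the highest WT liver for Csf1r, Lyz2, Ly6c2, Trem2 and Cd9, and the part of immature neutrophils in those levels was not tested. Macrophage genes were high there as well. The mean log2 CPM of the pan-macrophage genes was 4.35 in WT 1 and 3.26 in both WT 2 and WT 3. Clec4f had 124.7 CPM in WT 1, against 58.2 and 49.1 CPM in WT 2 and WT 3.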
